A study of Homo sapiens with 9 samples.

Results

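Messenger RNA of shTRPV4 cells kept at 8 cP was compared with that of scramble control (SC) cells kept at 0.77 cP, 3 samples of each, so that the comparison used 6 of the 9 samples of the series and all genes counted in them. The cells were MDA-MB-231, a human breast cancer line that lacks oestrogen and progesterone receptors, and all were collected on day 6. SC cells carried a scramble hairpin and are labelled as wild type, whereas shTRPV4 cells carried a short hairpin RNA against *TRPV4*. Per the methods, both sequences were placed in the lentiviral pLKO.1 puro vector, and cells that carried it were kept in puromycin. As the methods state that a single hairpin sequence served for this work, the knockdown is that of 1 hairpin. The medium was at 0.77 cP or was thickened to 8 cP with methylcellulose. The labels name the 2 groups that differ in both respects, viscosity and hairpin, and the remaining 3 samples, SC cells at 8 cP, share the viscosity of one and the scramble hairpin of the other. None of the 9 samples held knockdown cells in the thin medium of 0.77 cP, so the effect of the hairpin at that viscosity was not measured.

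Extracellular fluid that is more viscous loads the cell membrane, and TRPV4 is a calcium-permeable cation channel that opens under osmotic and mechanical stimuli. Calcium entry and the actomyosin tension that follows can act on gene expression over seconds to days. The Hippo kinases, among them MST and LATS, restrain the coactivators YAP and TAZ, which bind TEAD factors. Immediate early genes such as *FOS*, *EGR1* and *NR4A1* are switched on within minutes by calcium and MAP kinase signals through SRF and CREB, and their transcripts are short-lived. Because the study asks whether cells keep a memory of viscosity that needs TRPV4, the question for this comparison was how close to SC cells at 0.77 cP the cells without TRPV4 lay after 6 days at 8 cP.

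The summed counts lay between 64571681 and 103518036 for SC cells at 0.77 cP and between 77058281 and 90195043 for shTRPV4 cells, and no group was shallower throughout. *TRPV4* itself (ENSG00000111199; chromosome 12, 109783087 to 109833406 on the minus strand of GRCh38) was counted 40, 28 and 54 times in the SC samples at 0.77 cP and 7, 1 and 13 times in the shTRPV4 samples. Levels are given as CPM, counts divided by the TMM-scaled library size and multiplied by 1000000, and *TRPV4* was at 0.424, 0.436 and 0.525 CPM in the first group and at 0.0764, 0.0128 and 0.144 CPM in the second. Where 3 sets of values follow each other below, the first is SC cells at 0.77 cP, the next SC cells at 8 cP and the last shTRPV4 cells. All 3 shTRPV4 samples lay below those SC samples, and the log2 level fell by 2.52 (standard error 0.50, edgeR adjusted p = 7.6e-04). The counts are so low that leaving out single libraries moved it between -3.27 and -2.06. Most of the line's usual genes were abundant in every sample of the series: *VIM* lay at 754 to 1063 CPM, *CD44* at 754 to 906 CPM and *KRT18* at 285 to 350.1 CPM. *SPARC*, also listed as usual for the line, was low, at 0.600 to 1.63 CPM. Of genes listed as low or absent in it, *EPCAM* lay at 16.9 to 19.4 CPM, *ERBB2* at 89.6 to 96.8 CPM and *GATA3* at 11.9 to 16.4 CPM. *ESR1* and *PGR* had at most 4 counts, and among markers of other cell types the T cell gene *CD3E* had at most 6, the myeloid gene *ITGAM* at most 4, the endothelial gene *CDH5* at most 1, the fibroblast gene *DCN* at most 2 and the leukocyte gene *PTPRC* 5 to 17. Others of these markers were counted in every sample: the monocyte gene *CD14* 265 to 558 times, the endothelial gene *PECAM1* 181 to 468 times, and the stromal genes *PDGFRB* 345 to 625, *COL1A1* 331 to 650 and *LUM* 60 to 145 times. Their part in the results was not tested. The share of counts from the mitochondrial genome was 2.04 to 2.58% in SC cells at 0.77 cP, 2.23 to 2.44% in SC cells at 8 cP and 3.28 to 3.40% in shTRPV4 cells, and its part in the results below was not tested.

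Most of the large differences of shTRPV4 cells at 8 cP from SC cells at 0.77 cP were falls. Among genes with at least 100 normalized counts in a group and no overlap between samples, immediate early genes led them: *NR4A1* was 22.3-fold, *FOSB* 22.4-fold and *EGR3* 29.0-fold lower in shTRPV4 cells. *IL1RN* and *IL24* were among the genes that rose the most, by 7.91-fold and 7.56-fold. Of 18264 genes tested, 7752 passed an adjusted p of 0.05 (quasi-likelihood test of edgeR, p adjusted by Benjamini-Hochberg). These were 3732 higher genes, or 20.4% of those tested, and 4020 lower genes, or 22%. Differences of at least 1 on the log2 scale, which is a doubling or more, were less balanced, with 212 higher and 635 lower genes. The median absolute log2 fold change was 0.35 over the genes that passed and 0.23 over all genes, so most of the shift was small. In 9239 genes (50.6%) the samples of the groups did not overlap, 4473 with shTRPV4 cells above and 4766 below. Protein-coding genes passed in 50.6% of 13645 tested and long non-coding RNA genes in 19.2% of 2826. Since 1 day and 1 hairpin were sampled and the sources do not say whether the samples of a group were separate cultures, the p-values measure only the spread between these samples. In bulk RNA, fewer cells of a kind and less RNA per cell cannot be told apart.

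**Figure D1:**
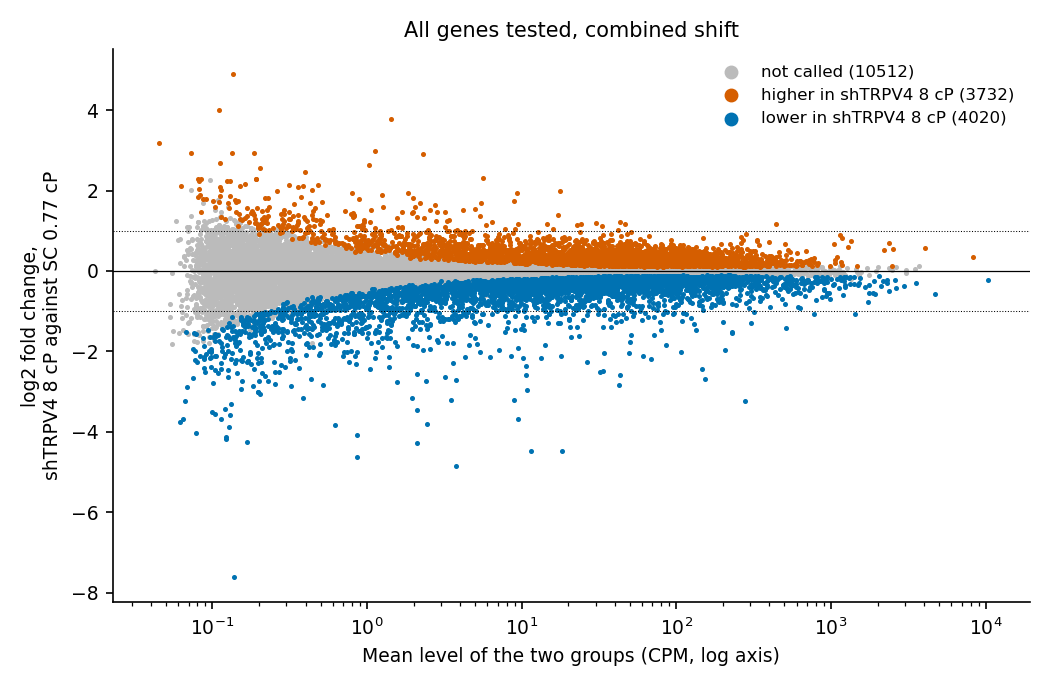
Log2 fold change of shTRPV4 8 cP against SC 0.77 cP (vertical axis) for each of the 18264 genes tested, against the mean level of these 2 groups in CPM (horizontal log axis); 3732 genes were called higher (orange), 4020 lower (blue), and dotted lines mark changes of 1. More points lie below the lower dotted line (635 called genes) than above the upper one (212).

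The combined difference is, for each gene, the sum of a viscosity step (SC 8 cP minus SC 0.77 cP) and a hairpin step (shTRPV4 8 cP minus SC 8 cP). Neither step alone held all of it. By itself the viscosity step was called in 9.57% of genes as higher and 9.69% as lower, and the hairpin step in 9.02% as higher and 11% as lower in shTRPV4 cells. Of the 7752 genes, 2083 (26.9%) had a called viscosity step only, 2220 (28.6%) a called hairpin step only, and 808 (10.4%) had both in the same direction. In a further 2583 genes (33.3%) neither step was called although their sum was, and their absolute log2 fold changes had a median of 0.26. The genes with both steps in the same direction had the largest median, 0.58. Steps that opposed each other were rare among the 7752 genes, 18 with a combined difference on the side of the viscosity step and 40 on that of the hairpin step. Each pair of these 3 comparisons shares a group of samples, so their values are set side by side here and not tested against each other.

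For the large differences the steps weighed unequally. In the 212 genes that were higher by at least 1, the hairpin step was the larger one in 142 and the viscosity step in 70, with median steps of 0.88 and 0.48. In the 635 genes that were lower by at least 1, it was 349 against 286, with medians of -0.77 for the hairpin step and -0.65 for the viscosity step. The samples did not overlap in 198 of the 212 and 618 of the 635 genes. Over all 7752 called genes this was so in 7424. Calls in the same comparison favour such separation, so it is no separate support for the large differences.

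Few of the genes that viscosity had changed in SC cells lay at the 0.77 cP level in shTRPV4 cells. Of the 3518 genes with a called viscosity step, 2909 (82.7%) still differed from SC cells at 0.77 cP in the same direction. The hairpin step was called in the direction back toward 0.77 cP in 234 genes (6.65%) and in the direction away from it in 808 genes (23%). Among the 234, no difference from SC cells at 0.77 cP was called in 176, a smaller difference of the same sign remained in 18, and 40 lay past the 0.77 cP level on its other side. Since a missing call does not show equal levels, the 90% interval of the combined difference was also set against a margin of 0.25 on the log2 scale (1.19-fold). It lay inside that margin in 425 of the 3518 genes (12.1%), against 25.7% of all genes tested. The 3518 genes were picked by a call against the same SC samples at 0.77 cP. That choice favours a lower share inside the margin and a higher share in the same direction, so neither share is a test of return. The interval lay beyond the margin in 1681 genes, of which 1666 were shifted in the direction of the viscosity step. A hairpin step called back together with an interval inside the margin, which is a return within 1.19-fold, was found in 128 genes.

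The ratio of the combined difference to the viscosity step puts a size on this, where 0 would be a full return and 1 no change by the hairpin. Its median over the 3518 genes was 1.24, with quartiles of 0.83 and 1.65. It was above 1 in 2314 genes, between 0.5 and 1 in 781, between 0 and 0.5 in 285 and below 0 in 138. The median was 1.30 for genes that had risen and 1.19 for genes that had fallen with viscosity. For the 257 genes that changed by at least 1 with viscosity, the median ratio was 0.89, 175 still differed from SC cells at 0.77 cP with the same sign, and none had an interval inside the margin. In 97 of them the mean reached 100 normalized counts in a group, and for these the median ratio was 1.10 and 95 still differed with the same sign. These ratios rest on a shared group, SC cells at 0.77 cP, and on genes picked for their viscosity step. Single libraries moved the counts of this and the preceding paragraph: without replicate 1 of SC cells at 0.77 cP the viscosity step was called in 1409 genes, of which 91 went back and 402 farther and 84 lay inside the margin. Without replicate 2 of that group these counts were 1927, 143, 446 and 140, and without replicate 3 of SC cells at 8 cP they were 1418, 67, 389 and 87. Leaving out replicate 1 or 2 of SC cells at 8 cP left 378 genes farther in each fit, with 129 back in the second, and leaving out replicate 2 of the shTRPV4 cells left 133 back and 534 farther. In each of these fits without 1 library more genes went farther than back. With a doubling required of both steps, 17 genes went back and 11 farther. With it required of the viscosity step alone, 27 went back and 32 farther. With replicate 1 of the shTRPV4 cells left out, 672 genes lay inside the margin.

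**Figure D2:**
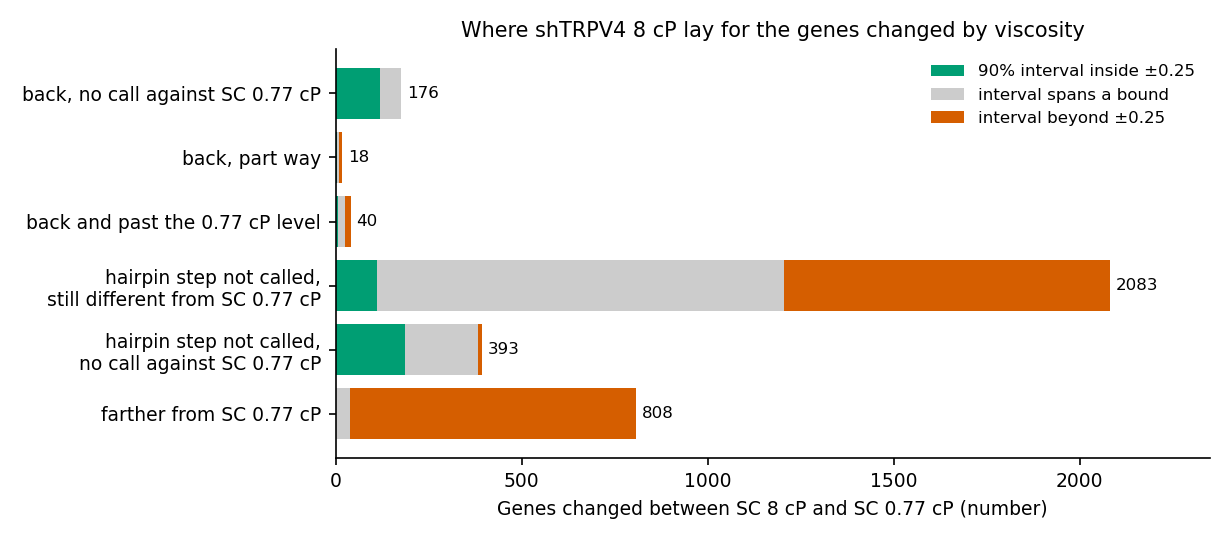
Numbers of the 3518 genes called between SC 8 cP and SC 0.77 cP, by where shTRPV4 8 cP lay; colours show whether the 90% interval of shTRPV4 8 cP minus SC 0.77 cP was inside a margin of 0.25 on the log2 scale. The longest bar holds the 2083 genes with no called hairpin step that still differed from SC 0.77 cP, and the 176, 18 and 40 genes of the 3 upper bars went back.

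Among the genes with a viscosity step of at least 1, none returned to within the margin. In 27 of the 257 the hairpin step was called back: 18 had no combined call but an interval that crossed the margin, 8 went part way and 1 passed the 0.77 cP level. That gene, *NTF3*, is given with others of its kind below. *RRAD*, a small GTPase that restrains calcium channels, was at 9.73, 12.2 and 9.89 CPM in SC cells at 0.77 cP, 5.11, 5.13 and 4.57 CPM in SC cells at 8 cP and 8.21, 7.50 and 7.46 CPM in shTRPV4 cells. All shTRPV4 samples lay above the SC samples at 8 cP and below those at 0.77 cP, which gave a combined difference of -0.45 on the log2 scale (standard error 0.093, edgeR adjusted p = 0.00113) after a viscosity step of -1.10. *MIR23AHG*, the host transcript of the miR-23a cluster, went from 18.7, 16.6 and 15.2 CPM through 4.71, 5.41 and 4.78 to 7.64, 6.53 and 7.13 CPM in the same order of groups, and *PRSS22*, a serine protease, from 5.18, 4.07 and 5.22 CPM through 1.38, 1.45 and 1.34 to 2.03, 2.01 and 2.60 CPM. Their combined log2 fold changes were -1.24 and -1.13, so that most of the viscosity step (-1.76 and -1.80) remained. *TFF2*, a mucosal trefoil peptide, and *NEAT1*, the scaffold RNA of paraspeckles, stood at -0.56 (edgeR adjusted p = 0.022) and -0.49 (edgeR adjusted p = 0.015). The call of *NEAT1* was lost without replicate 1 of SC cells at 0.77 cP (-0.24) and without replicate 3 of the shTRPV4 cells (-0.41). That of *TFF2* was lost without replicate 1 (-0.43) or 2 (-0.51) of SC cells at 0.77 cP and without replicate 1 of the shTRPV4 cells (-0.42). The gene ENSG00000275895 had a ratio of the smallest kind, but its samples ranged from 2.30 to 15.6 CPM within SC cells at 0.77 cP alone, its combined value turned from -0.60 to 0.81 without replicate 3 of that group, and the annotation marks it as an artefact. *MIR23AHG* overlaps *ZSWIM4* of the opposite strand over 2310 exon bases and its own miRNAs over 224. *NEAT1* shares 484 exon bases with genes on its own strand and *PRSS22* 29 with a gene on the other, and the strand option of the counting is not given in the sources used here.

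Returns within the margin were found for smaller steps. The following genes are named after their values were seen, as abundant examples of the 128. *LOXL4*, which crosslinks collagen and elastin, was at 218, 209.5 and 185 CPM in SC cells at 0.77 cP, 165, 167 and 132 CPM at 8 cP and 171, 211 and 225 CPM in shTRPV4 cells. The shTRPV4 samples lay around the SC samples at 0.77 cP, with a combined log2 fold change of -0.012 (90% interval -0.18 to 0.16) after a viscosity step of -0.40. *KRT7*, a simple epithelial keratin, followed the same course with steps of -0.35 and 0.44 and a combined value of 0.091, and so did *PLK2*, a stress-induced polo-like kinase, with steps of -0.40 and 0.27 and a combined value of -0.13. *COL6A3*, a chain of collagen VI, went by -0.32 and 0.38 to 0.061. A difference from 0.77 cP was called for *KRT7* without replicate 1 of the shTRPV4 cells (0.19) and for *PLK2* without replicate 3 (-0.19).

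In 40 genes the hairpin step overshot the 0.77 cP level, a count that ranged from 11 without replicate 3 of SC cells at 8 cP to 62 without replicate 1 of the shTRPV4 cells. *FAT3*, an atypical cadherin, was at 4.72, 4.44 and 6.24 CPM in SC cells at 0.77 cP, rose to 8.07, 7.53 and 9.01 CPM in SC cells at 8 cP and was at 2.90, 2.56 and 2.79 CPM in shTRPV4 cells, below both. *GPRC5B*, an orphan G protein-coupled receptor, was at 5.01, 6.10 and 4.05, then 3.85, 3.74 and 3.29 and then 6.94, 8.99 and 9.80 CPM, highest in shTRPV4 cells. Their combined log2 fold changes were -0.91 (standard error 0.13, edgeR adjusted p = 3.9e-05) and 0.77 (standard error 0.14, edgeR adjusted p = 3.9e-04), with groups that did not overlap. The adhesion genes *PCDH7* and *NLGN1* moved like *FAT3*, to -0.78 and -1.01. The complement gene *C3* and the neurotrophin gene *NTF3* moved like *GPRC5B*, to 0.92 and 0.88. The call of *NTF3* was lost without replicate 2 of SC cells at 0.77 cP (0.82) and without replicate 3 of the shTRPV4 cells (0.73). These 6 genes were named after their values were seen. *GPRC5B* shares 1777 exon bases with *IQCK* and *PCDH7* 1602 with an opposite-strand gene, and *C3* shares 1357 with a gene on its own strand, so that their values are uncertain.

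The genes that went farther, 808 against 234 that went back, included *RASD1* and *ID4*. With a doubling required of both steps the counts were 11 against 17. They were 32 against 27 with it required of the viscosity step alone. *RASD1*, a Ras-like GTPase, was at 74.6, 91.9 and 57.9 CPM in SC cells at 0.77 cP, 33.5, 31.3 and 31.4 CPM in SC cells at 8 cP and 9.35, 9.66 and 12.2 CPM in shTRPV4 cells. *ID4*, an inhibitor of helix-loop-helix factors, went from 2.62, 2.99 and 2.54 through 1.13, 1.11 and 1.05 to 0.360, 0.473 and 0.365 CPM. For both genes the groups were separate at each step, and the combined log2 fold changes were -2.84 and -2.77 (standard errors 0.13 and 0.17), of which the viscosity steps made up -1.22 and -1.30. *MUC5AC*, a gel-forming mucin, fell from 141, 73 and 87 counts through 36, 41 and 8 to 3, 6 and 12 counts, and its steps were of like size, -1.97 and -1.85, although 1 SC sample at 8 cP lay among the shTRPV4 samples. *EGR3* and *NR4A2*, given with the immediate early genes, also had large steps of this kind.

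**Figure D3:**
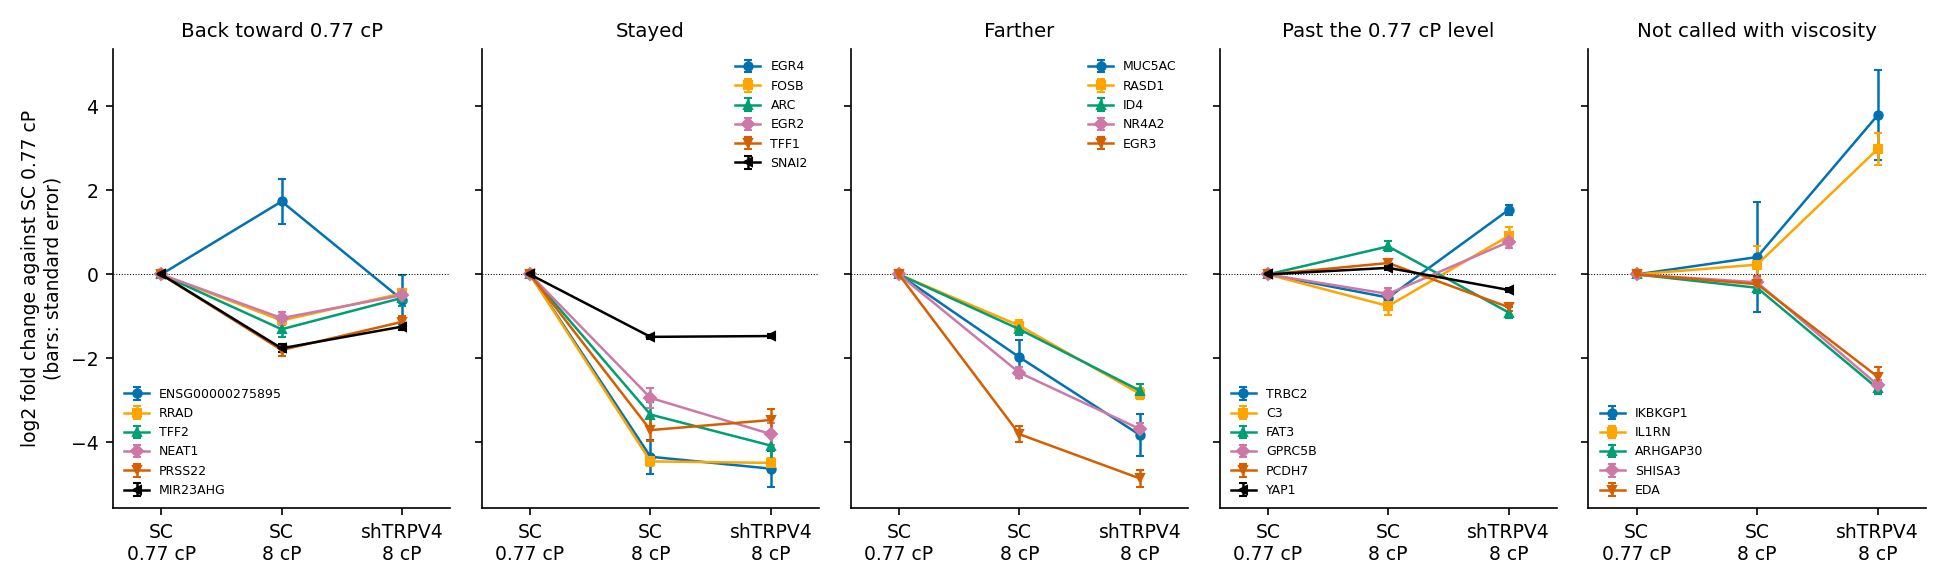
Log2 fold change against SC 0.77 cP (vertical axis, bars are standard errors) at SC 8 cP and shTRPV4 8 cP for 5 or 6 genes in each of 5 kinds; SC 0.77 cP is the zero line, and the genes of the fourth panel and *SNAI2* were chosen after their values were seen. Lines of the first panel turn back toward 0 at the last point (ENSG00000275895 ends below it), and those of the second have no called hairpin step. Those of the third fall on, those of the fourth cross 0, and those of the last have no called viscosity step.

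Many of the genes that the hairpin changed had no called viscosity step. *ARHGAP30*, a GTPase-activating protein, was at 6.87, 5.94 and 6.63 CPM in SC cells at 0.77 cP, 5.03, 5.41 and 5.19 CPM in SC cells at 8 cP and 1.28, 0.869 and 0.807 CPM in shTRPV4 cells. *SHISA3* was at 5.43, 5.74 and 5.30, then 4.68, 5.07 and 4.68 and then 0.819, 1.05 and 0.807 CPM, and *EDA*, a ligand of the TNF family, at 1.47, 1.90 and 1.94, then 1.14, 1.61 and 1.77 and then 0.284, 0.319 and 0.376 CPM. No viscosity step was called for these genes, although all SC samples at 8 cP lay somewhat below those at 0.77 cP for *ARHGAP30* and *SHISA3*. The shTRPV4 samples lay far below both SC groups, with combined log2 fold changes of -2.71, -2.63 and -2.43 (edgeR adjusted p = 1.7e-09, 3.5e-10 and 7.1e-07). *EDA* overlaps a gene of the opposite strand over 1327 exon bases. The pseudogene *IKBKGP1* had the largest value of this kind, 3.79, but it came from 1 library, which read 7.58 CPM while the other two shTRPV4 samples read 0.295 and 0.111 CPM. Without that library its log2 fold change was 0.099, and its near-identical parent gene *IKBKG* makes the counts uncertain.

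Genes that rose by at least 1 did so more often with the hairpin as the larger step, in the 142 of 212 given above. Over all 3732 higher genes the order was not the same, since 1102 had a called viscosity step only and 936 a called hairpin step only. *IL1RN* (ENSG00000136689; chromosome 2, 113099315 to 113134016 on the plus strand of GRCh38), the antagonist of the interleukin-1 receptor, was at 0.276, 0.0468 and 0.389 CPM in SC cells at 0.77 cP, 0.404, 0.176 and 0.319 CPM in SC cells at 8 cP and 2.63, 1.57 and 1.87 CPM in shTRPV4 cells. *SPNS2*, a transporter of sphingosine-1-phosphate, was at 7.16, 6.61 and 7.58, then 8.57, 8.41 and 7.73 and then 29.7, 27.6 and 27.9 CPM. The SC groups overlapped for *IL1RN*, and for *SPNS2* the SC samples at 8 cP lay somewhat above those at 0.77 cP. For both genes the shTRPV4 samples stood clear above all SC samples. Their combined log2 fold changes were 2.98 and 1.99 (standard errors 0.38 and 0.071, edgeR adjusted p = 2.0e-05 and 2.2e-11). *KCNJ15*, an inward rectifier potassium channel, rose by 1.95, *CAMK2B*, a chain of calcium/calmodulin-dependent kinase II, by 1.82, the ubiquitin ligase gene *NEURL1* by 1.89 and *ODAPH* by 1.93, none with a called viscosity step. *KCNJ15* depended on replicate 1 of the shTRPV4 cells, at 4.30 CPM against 2.44 and 1.94 CPM, and stood at 1.54 without it.

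Both steps raised *IL24*, a cytokine of the interleukin-10 family, from 0.350, 0.483 and 0.749 through 0.859, 1.00 and 1.32 to 4.92, 3.94 and 3.30 CPM, and *BMPER*, a secreted regulator of bone morphogenetic proteins, from 3.05, 4.04 and 4.53 through 6.43, 6.50 and 6.65 to 14.4, 14.8 and 15.3 CPM. The groups were separate at each step, and the combined values were 2.92 and 1.94. *CYP1A1*, a monooxygenase induced through the aryl hydrocarbon receptor, was the exception among the 10 largest rises of genes with at least 100 normalized counts in a group, since its viscosity step of 1.97 was larger than the hairpin step of 0.34 (edgeR adjusted p = 0.428). Its levels were 1.75, 1.68 and 2.17 CPM in SC cells at 0.77 cP, 6.08, 5.64 and 10.5 CPM in SC cells at 8 cP and 15.1, 6.95 and 6.04 CPM in shTRPV4 cells, where replicate 1 stood apart. Its combined value fell from 2.31 to 1.78 without that library. *IL24* shares 823 exon bases with *FCMR*, *CAMK2B* 2325 with *YKT6* and *SPNS2* 139 with *MYBBP1A*, each on the opposite strand, and *KCNJ15* 125 with *DSCR8* on its own.

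**Figure D4:**
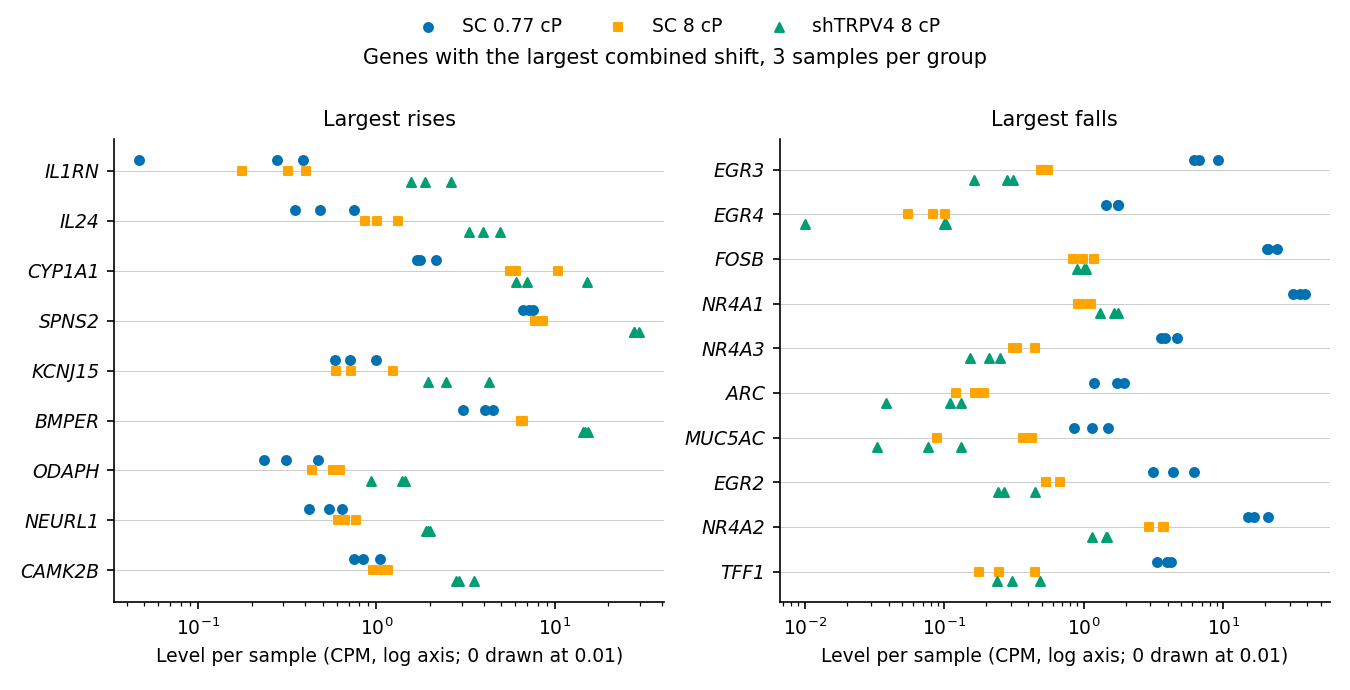
Level in CPM (log axis, 0 drawn at 0.01) of 9 of the 10 genes with the largest rise (left) and the 10 with the largest fall (right) in shTRPV4 8 cP against SC 0.77 cP, with 3 samples per group as single points. On the left the triangles of shTRPV4 8 cP mostly stand apart from both SC groups, and on the right both groups at 8 cP lie below the SC 0.77 cP circles, with the squares of SC 8 cP among the triangles for *FOSB* and *TFF1* and between circles and triangles for *EGR3* and *NR4A2*.

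Immediate early genes were the most shifted of the 28 gene lists examined, and they kept or deepened their fall in shTRPV4 cells. Of 34 tested, 31 were lower and 1 higher than in SC cells at 0.77 cP, with a median log2 fold change of -1.39 against -0.011 over all genes. The viscosity step alone had a median of -1.19, with 31 lower and 1 higher, and the hairpin step one of -0.20, with 12 lower and 2 higher. Of the 32 with a called viscosity step, 17 had no called hairpin step and stayed shifted, 13 went farther and 1, *NR4A1*, went back in part. The list holds genes whose falls at 8 cP were known from the study when it was written, so its direction is not independent evidence.

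Promoter sequences of 3 of these genes are shown, because binding sites of SRF (the CArG box) and of CREB (the CRE) are known from some immediate early genes. They are the 250 bases before the RefSeq start on GRCh38.p14, 5′ to 3′ on the strand of the gene. Capitals mark the CArG box, the CRE TGACGTCA and its half-site TGACG, which reads CGTCA on the opposite strand; each full CRE also holds both forms of the half-site. *EGR1* lies at chr5:138465229-138465478 on the plus strand, *DUSP1* at chr5:172771196-172771445 on the minus strand and *SIK1* at chr21:43427132-43427381 on the minus strand.

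EGR1: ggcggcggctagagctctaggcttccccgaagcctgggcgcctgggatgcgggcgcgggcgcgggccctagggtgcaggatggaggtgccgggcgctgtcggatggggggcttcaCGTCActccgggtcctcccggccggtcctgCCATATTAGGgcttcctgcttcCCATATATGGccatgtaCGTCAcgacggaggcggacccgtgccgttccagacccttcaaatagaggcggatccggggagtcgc

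DUSP1: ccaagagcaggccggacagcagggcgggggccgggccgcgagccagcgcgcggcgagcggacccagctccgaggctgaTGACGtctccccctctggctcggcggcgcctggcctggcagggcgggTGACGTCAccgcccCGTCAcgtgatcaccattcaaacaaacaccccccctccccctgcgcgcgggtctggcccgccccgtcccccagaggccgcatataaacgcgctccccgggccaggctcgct

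SIK1: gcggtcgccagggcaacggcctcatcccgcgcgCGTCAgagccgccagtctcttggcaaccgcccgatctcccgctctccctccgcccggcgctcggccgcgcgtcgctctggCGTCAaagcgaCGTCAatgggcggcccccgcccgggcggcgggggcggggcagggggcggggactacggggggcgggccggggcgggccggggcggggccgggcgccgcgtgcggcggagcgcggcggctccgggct

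The *EGR1* window held 2 CArG boxes and 2 half-sites, that of *DUSP1* 1 CRE and further half-sites, and that of *SIK1* 3 half-sites but no CArG box or full CRE. The windows shown are examples with matches, and those of *NR4A1*, *EGR2* and *ATF3*, among others, held none of the 3 motifs. A single RefSeq start per gene was searched, so a missing match says nothing about other starts of these genes. Of the 34 genes 24 had a promoter in the table. A CArG box was in 2 of them (8.33%), a CRE in 3 (12.5%) and a half-site in 15 (62.5%). Over all 27305 promoters of the table the shares were 1.14%, 1.77% and 21.7%, and over the 12108 promoters of genes tested 0.999%, 2.75% and 28.8%. Over the 365 matched promoters of genes that were lower by at least 1 they were 1.92%, 0.822% and 21.6%. Of the 10 largest falls named by the rule, 5 had a promoter, with a CArG box or CRE in none and a half-site in 3. These matches describe the letters in the window and are not measured binding.

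*EGR1*, a zinc finger factor, was at 465, 529 and 517 CPM in SC cells at 0.77 cP, 87.4, 83.7 and 93.8 CPM in SC cells at 8 cP and 37.1, 54.3 and 69.5 CPM in shTRPV4 cells. *DUSP1*, a MAP kinase phosphatase, was at 258, 256 and 232, then 47.4, 51.3 and 60.4 and then 41.6, 43.3 and 53.1 CPM in the same order. Both were lower in every sample at 8 cP, and *EGR1* alone of the pair was lower still in every shTRPV4 sample, with combined log2 fold changes of -3.23 (standard error 0.15) and -2.43 (standard error 0.093) and hairpin steps of -0.72 (edgeR adjusted p = 0.00235) and -0.20 (edgeR adjusted p = 0.132). *SIK1*, a kinase of the AMPK family, had a combined value of -1.37 and a hairpin step of 0.039.

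The orphan nuclear receptors of the NR4A family moved in different directions with the hairpin. *NR4A1* (ENSG00000123358; chromosome 12, 52022832 to 52059507 on the plus strand of GRCh38) was at 38.3, 35.7 and 31.4 CPM in SC cells at 0.77 cP, 1.12, 0.911 and 0.958 CPM in SC cells at 8 cP and 1.65, 1.30 and 1.75 CPM in shTRPV4 cells. *NR4A2* was at 16.7, 21 and 14.9, then 3.77, 3.67 and 2.91 and then 1.47, 1.15 and 1.45 CPM, and *NR4A3* at 3.55, 3.80 and 4.66, then 0.445, 0.331 and 0.308 and then 0.251, 0.153 and 0.210 CPM. *NR4A1* rose a little with the hairpin, by 0.66 on the log2 scale against a viscosity step of -5.13, while *NR4A2* and *NR4A3* fell further, by hairpin steps of -1.34 and -0.81. Compared with SC cells at 0.77 cP the 3 genes stood at -4.48, -3.68 and -4.27 (edgeR adjusted p = 4.9e-13, 8.1e-11 and 1.0e-09). *NR4A1* overlaps *NR4A1AS* of the opposite strand over 754 exon bases.

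*FOSB*, an AP-1 subunit, was at 20.7, 24.1 and 21 CPM in SC cells at 0.77 cP, 0.981, 0.839 and 1.19 CPM in SC cells at 8 cP and 1.04, 0.997 and 0.896 CPM in shTRPV4 cells, so that the groups at 8 cP overlapped (combined log2 fold change -4.49, standard error 0.12; hairpin step -0.036). *EGR3*, of the same family as *EGR1*, was at 6.12, 9.20 and 6.64, then 0.516, 0.497 and 0.551 and then 0.164, 0.281 and 0.310 CPM, lowest in shTRPV4 cells. *EGR4* had 136, 112 and 182 counts, then 10, 8 and 5 and then 0, 8 and 9 counts, and *ARC* 164, 76 and 199, then 19, 16 and 11 and then 10, 3 and 12 counts. Their combined values were -4.86, -4.62 and -4.08, with that of *EGR2* at -3.80. *ATF3* and *KLF10* stood at -2.60 and -1.48, the second with a called hairpin step of -0.29. *FOSL1*, an AP-1 subunit of slower kinetics, was the 1 member that rose, at 283, 289 and 324, then 333, 327 and 356 and then 522, 466 and 492 CPM, by 0.72 (edgeR adjusted p = 2.1e-07). *SRF* and *BTG2* were not called, at -0.11 and -0.077, although *SRF* was called without replicate 1 of SC cells at 0.77 cP (-0.14). *EGR3* overlaps a gene of the opposite strand over 164 exon bases, and *EGR2* shares 145 with a gene on its own strand.

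Inflammatory genes mostly fell with viscosity, and most had no called hairpin step. Of 23 tested, 13 were lower and 4 higher than in SC cells at 0.77 cP (median -0.48). The viscosity step had a median of -0.56, with 13 lower and 1 higher. The hairpin step had one of 0.20, with 5 higher, 2 lower and 16 not called. Of the 14 with a called viscosity step, 8 stayed, 3 went farther and 1 went back. The other 2 had neither a called hairpin step nor a combined call. *IL6* was at 29.7, 36.6 and 21.6 CPM in SC cells at 0.77 cP, 4.92, 5.36 and 4.73 CPM in SC cells at 8 cP and 5.38, 7.09 and 7.70 CPM in shTRPV4 cells, and the growth factor gene *CSF2* at 22.4, 23.2 and 21, then 5.64, 5.03 and 5.93 and then 5.71, 6.20 and 6.67 CPM. The neutrophil chemokine gene *CXCL8* was at 58.2, 69 and 37.4, then 11.1, 12.3 and 9.91 and then 6.66, 10.1 and 12.1 CPM. In each of these genes the groups at 8 cP lay close together and far below 0.77 cP, with combined values of -2.12, -1.84 and -2.51 and no called hairpin step. The 4 higher members were *IL1RN* and *IL24*, given above, *IL1A* with 1.22 and *IL32* with 0.69, both with no called viscosity step. *TNFAIP3*, an inhibitor of NF-kappaB signalling, was the member that went back, by 0.38 after -0.93. *IL6* overlaps genes of the opposite strand over 428 exon bases. *TFF1*, a trefoil peptide outside this list, fell from 4.22, 3.94 and 3.33 CPM to 0.240, 0.307 and 0.487 CPM (log2 fold change -3.47).

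Interferon-stimulated genes were lower in 17 of 24 and higher in 2, with a median of -0.35, to which the steps contributed medians of -0.21 and -0.14. *OASL*, an antiviral 2′-5′ oligoadenylate synthetase-like protein, was at 58.4, 67.8 and 59 CPM in SC cells at 0.77 cP, 36.2, 36.9 and 33.8 CPM in SC cells at 8 cP and 24.9, 26 and 27.9 CPM in shTRPV4 cells, separate at each step. *OASL*, *IFIT1*, *IFIT2* and *IFI44* stood at -1.23, -0.83, -0.84 and -0.56. *OAS3*, a higher member, stood at 0.33. *IFIT2* overlaps a gene of its own strand over 524 exon bases.

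Genes of the Hippo pathway shifted by small amounts, and the coactivator gene *YAP1* ended below its 0.77 cP level. *YAP1* (ENSG00000137693; chromosome 11, 102110447 to 102233424 on the plus strand of GRCh38) was at 155, 171 and 172 CPM in SC cells at 0.77 cP, 186, 182 and 188 CPM in SC cells at 8 cP and 131, 129 and 126 CPM in shTRPV4 cells. Every shTRPV4 sample lay below every SC sample, and the combined difference was -0.37 (standard error 0.047, 90% interval -0.45 to -0.29, edgeR adjusted p = 1.6e-05), more than the viscosity step of 0.16 in the other direction. *TEAD2* was at 18.1, 18.4 and 18.2, then 19.2, 20.6 and 21.1 and then 19, 17.1 and 17.7 CPM, with no called viscosity step (0.15) or hairpin step (-0.18), and its shTRPV4 samples fell around those of SC cells at 0.77 cP, with a combined value of -0.023 and a 90% interval of -0.13 to 0.085, inside the margin. *WWTR1*, which encodes TAZ, was at 101, 102 and 101 CPM in SC cells at 0.77 cP and 88.6, 85.2 and 86.3 CPM in shTRPV4 cells (log2 fold change -0.22, edgeR adjusted p = 0.00164). Of 8 YAP, TAZ and TEAD factors tested, 3 were lower, the third being *VGLL4* (-0.40), and 1, *TEAD4* (0.36), was higher. The share called is near the 50.6% called among all protein-coding genes. *YAP1* overlaps genes of the opposite strand over 639 exon bases. *TEAD2* shares 319 with *CD37*, *WWTR1* 756 with *WWTR1-AS1* and *VGLL4* 1716 with genes that include *ATG7*, also on the opposite strand.

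Of 16 tested kinases and activators that restrain YAP, 8 were higher, 2 lower and 6 not called (median 0.14). Over all protein-coding genes 50.6% were called. The viscosity step had called 7 of the 16 higher and the hairpin step called 4 higher and 1 lower. Of the 7, none went back, 3 stayed and 2 went farther. The remaining 2 had neither a called hairpin step nor a combined call. *WWC1*, an activator of LATS kinases, was at 54.4, 53.2 and 59.9 CPM in SC cells at 0.77 cP, 60.6, 65.9 and 64.7 CPM in SC cells at 8 cP and 73.6, 76.9 and 80.2 CPM in shTRPV4 cells, rising at each step to 0.46. The MST1 gene *STK4* stood at 0.31 and the FERM protein gene *FRMD6* at 0.28, while *MAP4K4*, a kinase upstream of LATS, was lower, at -0.34. Direct YAP and TAZ target genes went both ways, 7 higher and 8 lower of 22 (median -0.10). Of the 8 with a called viscosity step, 5 went back, 3 stayed and none went farther. Over all genes with a called viscosity step, 6.65% went back and 23% farther, and this difference was not tested. *F3*, tissue factor, and *NT5E*, a nucleotidase, had no called viscosity step and moved with the hairpin to 0.40 and -0.43. *NUAK2*, a kinase of actomyosin control, kept most of its viscosity step of -2.65 and stood at -2.15. The classical targets *CCN1* and *ANKRD1* went back: *CCN1* was at 1470.3, 1573 and 1277, then 1074, 1047 and 1044 and then 1119, 1254 and 1417 CPM and was not called (-0.19), and *ANKRD1* at 475, 464 and 442, then 342, 369 and 382 and then 449.8, 601 and 617 CPM passed its 0.77 cP level (0.27, edgeR adjusted p = 0.0205) with samples that overlapped. The call of *ANKRD1* was lost without replicate 3 of SC cells at 0.77 cP (0.25) and without replicate 2 (0.21) or 3 (0.19) of the shTRPV4 cells, and *CCN1* was called lower without replicate 3 of either group (-0.26 and -0.28). *AXL* and *CRIM1*, which had risen at 8 cP, also went back, to -0.085 and -0.070, and *CCN2* stayed lower at -0.28.

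**Figure D5:**
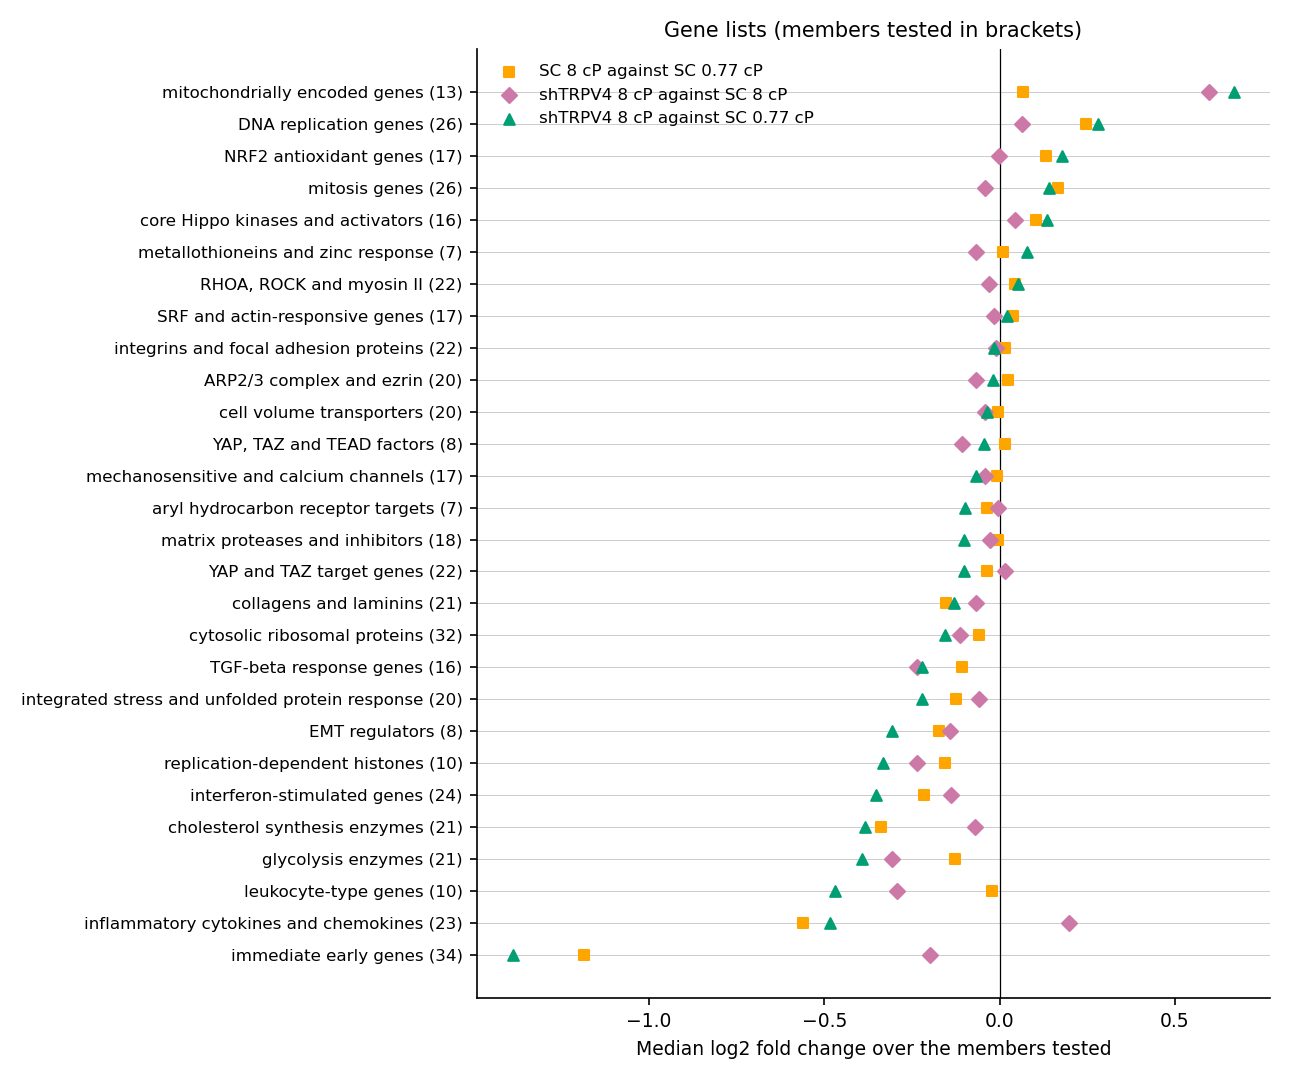
Median log2 fold change over the tested members of each of the 28 gene lists (number in brackets) for SC 8 cP against SC 0.77 cP (squares), shTRPV4 8 cP against SC 8 cP (diamonds) and their combination, shTRPV4 8 cP against SC 0.77 cP (triangles). The triangles run from -1.39 for immediate early genes to 0.67 for mitochondrially encoded genes, and the 3 comparisons share samples.

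Mitochondrially encoded genes rose with the hairpin: 12 of 13 were higher than in SC cells at 0.77 cP (median 0.67), none had a called viscosity step and 12 had a called hairpin step. *MT-ND5*, a subunit of complex I, was at 1001, 685 and 702 CPM in SC cells at 0.77 cP, 961, 797 and 867 CPM in SC cells at 8 cP and 1549, 1419.9 and 1471 CPM in shTRPV4 cells. *MT-CYB*, cytochrome b of complex III, was at 1018, 719 and 806, then 952, 804 and 925 and then 1572, 1459 and 1469 CPM. The SC groups overlapped and the shTRPV4 samples lay above all of them, with combined values of 0.89 and 0.82. *MT-ND3* was the member not called (0.15). It was called without replicate 1 of the shTRPV4 cells (0.22). The libraries were selected for poly(A), and the part of this selection in the shift was not tested.

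Glycolysis enzymes moved the other way, and also mainly with the hairpin. Of 21 tested, 19 were lower and none higher (median -0.39), with 18 lower in the hairpin step and 10 in the viscosity step; 10 went farther and none went back. *ALDOC*, a fructose-bisphosphate aldolase, was at 12.5, 12.1 and 9.56 CPM in SC cells at 0.77 cP, 6.91, 6.56 and 5.34 CPM in SC cells at 8 cP and 2.50, 3.04 and 3.26 CPM in shTRPV4 cells. *PFKFB4* and *PFKFB3*, which set the level of an activator of phosphofructokinase, and *SLC2A3*, a glucose transporter, stood at -1.22, -0.72 and -0.99. Of the enzymes of the lower pathway, *PGK1* stood at -0.76, *ENO1* at -0.58, *LDHA* at -0.38 and *GAPDH* at -0.37, the last 3 with no called viscosity step. *ALDOC* overlaps a gene of the opposite strand over 296 exon bases, and *PFKFB4* shares 298 with *UCN2* on its own.

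The sterol genes had mostly fallen already with viscosity and did not come back. Of 21 genes of cholesterol synthesis and its control, 17 were lower and none higher (median -0.38, of which the viscosity step had -0.34), 10 stayed and 5 went farther. *INSIG1*, which retains the sterol sensor in the endoplasmic reticulum, was at 135, 121 and 82.4 CPM in SC cells at 0.77 cP, 35.6, 37.3 and 30.1 CPM in SC cells at 8 cP and 24.7, 24.4 and 25.4 CPM in shTRPV4 cells. *SREBF2*, the factor that drives these genes, and *IDI1*, an isomerase of the pathway, stood at -0.89 and -0.93. *SREBF2* overlaps a gene of the opposite strand over 731 exon bases and *IDI1* over 643.

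DNA replication genes rose with viscosity and kept the rise. Of 26 tested, 25 were higher and none lower than in SC cells at 0.77 cP (median 0.28). The viscosity step was called higher in 20 of the 26 (median 0.25) and the hairpin step in 5. Of the 20, 15 stayed higher with no called hairpin step, 4 went farther and 1 had no combined call. *CCNE1*, the cyclin of entry into S phase, was at 13.4, 12.9 and 15.8 CPM in SC cells at 0.77 cP, 18.8, 18.4 and 20.5 CPM in SC cells at 8 cP and 25.8, 23.6 and 24.3 CPM in shTRPV4 cells, and its combined value was 0.81. *RFC3* and *RFC4* of the clamp loader stood at 0.53 and 0.50 and *GINS1* of the replicative helicase at 0.52. The rise was smaller among mitosis genes, with 13 of 26 higher and 2 lower (median 0.14). *KIF23* stood at 0.42, *MAD2L1* at 0.42 and *CDC25C*, one of the lower genes, at -0.36. Replication-dependent histones were lower in 5 of 10 tested and higher in none (median -0.33), a share near the 50.6% called among protein-coding genes. *H2AC6* stood at -0.75. Transcripts of these histones lack poly(A) tails for the most part, and the libraries were selected for poly(A). Cytosolic ribosomal protein genes were lower in 19 of 32 and higher in none (median -0.16), although each step alone called 2 of them. Their count moved from 11 without replicate 1 of SC cells at 0.77 cP to 23 without replicate 3 of the shTRPV4 cells, and *RPS9* stood at -0.41.

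Among adhesion genes, *ITGB1* fell with the hairpin and not with viscosity. *ITGB1* (ENSG00000150093; chromosome 10, 32887273 to 33005792 on the minus strand of GRCh38), the integrin beta 1 chain that pairs with many alpha chains, was at 1905, 2029 and 1857 CPM in SC cells at 0.77 cP, 1918, 1946 and 1917 CPM in SC cells at 8 cP and 894, 943 and 935 CPM in shTRPV4 cells. The SC groups lay together and the shTRPV4 samples lay far below them, at 0.479 times the level of SC cells at 0.77 cP, or -1.06 on the log2 scale (standard error 0.046, edgeR adjusted p = 2.4e-10). *ITGB1* overlaps *ITGB1-DT* of the opposite strand over 401 exon bases. Of 22 integrins and focal adhesion proteins tested, 6 were lower and 6 higher, which is near the 50.6% called among all protein-coding genes. *ITGB4*, *ITGA1* and *ITGA5* stood at -0.74, -0.69 and -0.42, and *ITGAV*, *ZYX* and *PXN* at 0.47, 0.42 and 0.29. Of 21 collagen, laminin and related matrix genes, 8 were lower and 3 higher, also near the 50.6% called among protein-coding genes. The fibrillar chain gene *COL1A2* was at -0.96, *COL13A1* at -0.82 and fibronectin (*FN1*) at -0.71. Without replicate 1 of SC cells at 0.77 cP, 5 genes of this list were higher.

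Among 8 tested regulators of the epithelial to mesenchymal transition, the viscosity step was called lower in 4 and not called in 4, and 5 were lower and 1 higher in the combined comparison. *SNAI2* was at 121, 119 and 111 CPM in SC cells at 0.77 cP, 43.7, 41 and 40.7 CPM in SC cells at 8 cP and 41.5, 41.3 and 44.2 CPM in shTRPV4 cells, and *SNAI1* at 19.2, 17.5 and 11.3, then 3.04, 2.01 and 2.26 and then 1.72, 1.48 and 1.96 CPM. The groups at 8 cP overlapped for *SNAI2*, and the combined values were -1.47 (standard error 0.050) and -3.21 (standard error 0.19). *VIM* was lower, at -0.45, and *CD44* was higher by 0.19, and 6 of the list, *CDH1* among them, were too low to test. Among TGF-beta response genes 11 of 16 were lower and 2 higher (median -0.22), with 9 lower in the hairpin step and 3 in the viscosity step. The inhibitor of differentiation genes *ID2* and *ID3* fell at each step to -1.77 and -1.07, and *ID1* fell with the hairpin to -0.69. *INHBA*, a subunit of activin, rose by 0.52. *SNAI2* shares 121, *ID2* 145 and *VIM* 1275 exon bases with opposite-strand genes.

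Of 18 matrix proteases and inhibitors tested, 5 were higher and 7 lower. *MMP9*, a gelatinase, was counted 1, 0 and 1 times in SC cells at 0.77 cP, 5, 3 and 3 times at 8 cP and 26, 23 and 20 times in shTRPV4 cells. It is among the 5 higher genes, but it passed the filter on low counts only through the shTRPV4 samples, where it is high. Its call is therefore no support for a rise, and with counts at or under the floor of 3 at 0.77 cP no fold is given. It overlaps *SLC12A5-AS1* of the opposite strand over 430 exon bases. *ADAMTS1* and *SERPINE2* were lower, at -0.74 and -0.65 and *SERPINB2* was higher by 1.65.

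Other ion channels moved besides *TRPV4*. Of 17 mechanosensitive and calcium channels and their partners tested, 7 were lower and 6 higher. *KCNK2*, the stretch-activated potassium channel TREK-1, was at 0.976, 0.951 and 1.16 CPM in SC cells at 0.77 cP, 1.87, 2.22 and 2.74 CPM in SC cells at 8 cP and 3.78, 3.21 and 3.03 CPM in shTRPV4 cells, rising at each step to 1.69. *TRPM7*, a channel with a kinase domain, stood at 0.40 and the store-operated channel gene *ORAI3* at -0.71. *PIEZO1* stood at -0.16, a call lost in 4 of 9 fits without 1 library, those without replicate 1 or 3 of SC cells at 0.77 cP and without replicate 2 or 3 of the shTRPV4 cells (-0.15 to -0.13). Of 20 genes of cell volume control, 7 were lower and 5 higher, not far from the 50.6% called among protein-coding genes. The volume-regulated anion channel subunits diverged, with *LRRC8A* at -0.41 and *LRRC8D* at 0.55. *TRPM7* shares 390 exon bases with a gene on its own strand.

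Genes of the actin machinery moved little. Of 20 ARP2/3 complex, WAVE and ezrin family genes, 15 had an interval inside the margin, and the 5 higher and 4 lower ones differed by at most 0.24. The 4 became 2 without replicate 2 of SC cells at 0.77 cP. *WASF2* stood at -0.24 and moesin (*MSN*) at 0.20. Of 17 SRF and actin-responsive genes, 4 were higher and 1 lower, among them the tropomyosin gene *TPM1* at 0.32, *CALD1* at 0.27 and *TAGLN* at -0.53. Of 22 genes of RHOA, ROCK and myosin II, 6 were higher and 6 lower, also near the 50.6% called among protein-coding genes. *RHOB*, a small GTPase that is induced like an early gene, was the exception in size, at 112, 104 and 81.6 CPM in SC cells at 0.77 cP, 34.8, 34.3 and 30.8 CPM in SC cells at 8 cP and 21.4, 22.8 and 24.7 CPM in shTRPV4 cells (-2.11, edgeR adjusted p = 3.5e-10). *MYLK*, myosin light chain kinase, rose with the hairpin to 0.64, and *MYH10*, a heavy chain of non-muscle myosin II, stood at 0.48. *MYLK* overlaps genes of the opposite strand over 974 exon bases.

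Genes of the integrated stress and unfolded protein responses were lower in 12 of 20 and higher in 2 (median -0.22). *DDIT4*, an inhibitor of mTORC1, was at 373, 348 and 300 CPM in SC cells at 0.77 cP, 204, 222 and 197 CPM in SC cells at 8 cP and 104, 121 and 133 CPM in shTRPV4 cells, falling at each step to -1.51, and *DDIT3*, a factor of the integrated stress response, stood at -1.62. *XBP1* and *HERPUD1* kept viscosity steps of -0.33 and -0.40 with little added. NRF2 antioxidant genes were higher in 9 of 17 and lower in 1, with *AKR1C1* at 0.73, *HMOX1* at 0.38 and *OSGIN1* at -0.52. Of 7 aryl hydrocarbon receptor targets tested, 3 were higher, *CYP1A1*, *CYP1B1* (0.76) and *NQO1* (0.18), and 2 lower, and of 7 metallothionein and zinc genes 2 were higher and 1 lower, as *MT1X* at 0.37. Without replicate 1 of SC cells at 0.77 cP no receptor target was lower and 1 gene each of the stress and metallothionein lists was higher, and these counts of the latter pair were also 1 without replicate 2 of that group and without replicate 2 or 3 of the shTRPV4 cells. *DDIT3* overlaps a gene of its own strand over 105 exon bases and genes of the other over 413, and *CYP1B1* shares 774 with genes on the other.

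Of 10 tested of a list of 17 genes best known from leukocytes, 6 were lower and 1 higher. Over all protein-coding genes 50.6% were called. As this list was drawn up with results of these samples known, its count is not independent evidence. *LCP1*, an actin-bundling plastin, was at 7.48, 9.01 and 9.19 CPM in SC cells at 0.77 cP, 8.16, 8.70 and 9.78 CPM in SC cells at 8 cP and 2.97, 2.17 and 1.22 CPM in shTRPV4 cells (-2.01), and *SIRPB1* stood at -2.28. *TRBC2*, a constant segment of the T cell receptor beta chain, was at 2.78, 2.70 and 2.16, then 1.75, 1.95 and 1.49 and then 6.97, 7.19 and 7.92 CPM, the 1 member that rose (1.54), and passed its 0.77 cP level. Of the defining markers of such cells, *CD3E* had at most 6 counts in any sample, *ITGAM* at most 4 and *PTPRC* 5 to 17 in every sample. The monocyte marker *CD14* was well above these, at 5.92, 6.42 and 5.25 CPM in SC cells at 0.77 cP, 4.56, 4.47 and 3.71 CPM in SC cells at 8 cP and 3.02, 3.39 and 3.99 CPM in shTRPV4 cells, and was lower by the test (-0.75, edgeR adjusted p = 1.3e-04). *SIRPB1* overlaps a gene of its own strand over 815 exon bases, *LCP1* shares 965 with *CPB2-AS1* on the other, and *TRBC2* has a near-identical paralog, *TRBC1*, so that these values are uncertain.

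Some list members named without a remark also share exon bases with other genes, which makes their values less certain. On their own strand these are *ORAI3* (1397 bases), *ITGA1* (1070), *SERPINB2* (547), *OSGIN1* (457, *MLYCD*), *LRRC8D* (329), *MT1X* (321) and *TAGLN* (2498). On the opposite strand they are *TPM1* (3336), *PIEZO1* (2292), *TAGLN* (2233, *PCSK7*), *PXN* (2032), *ITGA1* (1494), *TRPM7* (606) and *NQO1* (575), and at most 422 bases, in *GAPDH*, for the others. Over all lists, 348 of 509 tested genes were called, against 42.4% of all genes and 50.6% of protein-coding genes. The counts called in single lists are to be read against these shares, and the lists were drawn up with results of these samples known.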

How the data were processed

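RNA of 9 MDA-MB-231 samples, 3 per group, was sequenced as poly(A)-selected, strand-marking libraries (paired 100 base reads). Per the study's methods and processing notes, the authors aligned reads with HISAT2 2.2.1 to GRCh38.p13 and deposited raw counts of exon reads per Ensembl gene from HTSeq 0.13.5; the strand option and the handling of reads shared by overlapping genes are not given in the sources used here. Samples were grouped by the labels. Of 60664 genes, 18264 passed filterByExpr. Counts were scaled by TMM and fitted with edgeR 4.0.16 (quasi-likelihood, R 4.3.3), with 1 coefficient per group over all 9 samples and Benjamini-Hochberg adjustment over all tested genes at 0.05; standard errors and 90% intervals come from the same fit. Totals of 64571681 to 103518036 counts per sample and a common biological coefficient of variation of 0.0633 set the precision.

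Genes were named by rule: *TRPV4*, *YAP1*, *TEAD2* and *WWTR1*, the 10 largest called rises and falls whose mean reached 100 normalized counts in a group and whose samples did not overlap, 6 each with the most complete return, the largest further shift and the largest shift without a viscosity call (same count minimum), and up to 4 per list with the smallest adjusted p; genes named outside it were chosen after their values were seen. A few of the genes picked by it are left out of the text and plots. The comparison, the 28 lists (546 genes, 509 tested) and the rules were chosen with earlier results of these data known. Positions are from GENCODE 44 on GRCh38. Promoters are from RefSeq on GRCh38.p14. Scripts were tested on simulated data. Alternatives were DESeq2 1.42.0, upper quartile scaling, other filters on low counts, a replicate block, a fit of the 6 samples, a fold threshold, other margins and leaving out each library.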

Additional observations from a re-analysis of the deposited data

How the results depend on the processing

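The number of genes called in the combined comparison was 7752 and moved to 7756 with DESeq2 (7596 of the genes shared), 7713 with upper quartile scaling (3483 higher, 4230 lower) and 7189 in a fit of the 6 samples alone. Leaving out single libraries gave 6318 to 7705 genes, 3100 to 3869 higher and 3218 to 3869 lower. With a required doubling (an absolute log2 value of 1 or more), 847 genes passed (212 higher, 635 lower). This left 257 for the viscosity step, 345 for the hairpin step and 54 list genes. Where both steps had to double, 17 viscosity genes were back and 11 farther. A further 164 had a combined call but no called hairpin step of that size. Where only the viscosity step had to double, 27 were back and 32 farther, and 135 had a combined call but no called hairpin step. A margin of 0.5 held 1784 viscosity genes and a margin of 0.1 held 16. Without single libraries the viscosity step was called in 1409 to 4349 genes and the hairpin step in 2179 to 3836. The same fits gave 67 to 308 genes back, 823 to 2508 staying, 378 to 1072 farther and 84 to 672 inside the margin, with 314 to 351 list genes. *TRPV4* ranged from -3.27 to -2.06 and could not be fitted with at least 10 counts in every sample. A replicate block gave 7731, 3475 and 3607 genes for the 3 comparisons, with 251 back, 793 farther and 479 inside the margin; it moved none of these counts by over 1.5 times. The labels do not say that equal numbers mark a shared culture, same-numbered samples of SC 0.77 cP and shTRPV4 had deviations correlated at -0.045, 0.020 and -0.055 across genes, and not every sample correlated best with its own number. Values near 0 changed sign without single libraries: LOXL4 ranged from -0.096 to 0.098, AXL from -0.12 to 0.0055, TEAD2 from -0.068 to 0.011 and ENSG00000275895 from -1.39 to 0.81. Over 177 genes and 2650 fits the call and direction held in 2608, weakened in 25, gained a call in 11 and changed sign in 6; the cause was not tested. *NEAT1* also lost its call with DESeq2 (adjusted p = 0.0735). With a required doubling 48 of 56 list counts moved by over 1.5 times; among the fits without 1 library, at most 7 did, without replicate 1 of SC cells at 0.77 cP. Counts below about 10 per library, as for *TRPV4* and *MMP9*, limit the precision of single genes.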
